A study of Homo sapiens with 20 samples.

Results

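The comparison described here set LNCaP cells titled G2/M arrested, which had nocodazole, against LNCaP cells with the same androgen and no arresting drug. LNCaP is an established androgen-responsive human prostate cancer line. The members were the 3 arrays titled as G2/M arrested and the 3 titled as CDT plus DHT, 6 of the 20 arrays of the series, chosen by their titles and not by any measured value. The series asked which transcripts under dihydrotestosterone (DHT), the strongest natural androgen, vary with the phase of the cell cycle. The G2/M cells grew in hormone-proficient medium and had aphidicolin, an inhibitor of replicative DNA polymerases, at 2 µg/mL for 15 h. After a washout they had nocodazole, which stops tubulin from polymerising, at 50 ng/mL for 9 h, with 10 nM DHT in the last 3 h. The CDT + DHT cells had neither drug. They were kept for 72 h in a medium labelled CDT, a name the labels do not spell out, and had DHT for the last 3 h. The growth protocol names hormone-proficient medium for every sample, so the CDT medium rests on the sample descriptions. By those descriptions medium, aphidicolin, nocodazole and arrest all differed between the groups and cannot be told apart in this comparison.

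The other groups served as references for the same genes. CDT (n = 3) had 72 h in the CDT medium with ethanol in place of DHT for 3 h. In hormone-proficient medium with 10 nM DHT for 3 h, early G1 (n = 3) had the CDK4 and CDK6 inhibitor PD-0332991 at 0.5 µM for 24 h, and late G1 (n = 3) had 24 h of 5 µg/mL roscovitine, which blocks several kinases of the cell cycle. Early S (n = 2) had aphidicolin alone at 2 µg/mL for 24 h, and late S (n = 3) had 24 h of 1 mM hydroxyurea, a blocker of deoxynucleotide supply. Early S shares medium, hormone and one of the drugs with the G2/M group, and is the nearest reference for it. Whether the replicates of a group came from separate cultures is not in the labels. The p-values therefore speak of the spread between arrays alone, and the small number of arrays limits the precision of every value.

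Cells enter mitosis when cyclin B and its kinase CDK1 are switched on, helped by the Aurora and Polo-like kinases, and most genes of this machinery are transcribed late in the cycle by the MuvB complex with MYBL2 and FOXM1. Nocodazole removes spindle microtubules, so that unattached kinetochores hold the anaphase-promoting complex (APC/C) inactive and cells stay in prometaphase. Tubulin messenger RNAs are known to be degraded when free tubulin dimers rise, a feedback in which the adaptor TTC5 recognises the new tubulin chain on the ribosome.

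Levels are given as log2(intensity + 1) for 1 transcript cluster per gene, and differences are G2/M minus CDT + DHT on that scale with the standard error of the limma fit. A gene is said to have risen or fallen when its limma p, adjusted by the Benjamini-Hochberg method over all 18417 genes, was below 0.05. On this basis 50 genes rose (0.271% of the genes tested) and 31 fell (0.168%), while 2779 (15.1%) had an unadjusted p below 0.05. The median difference over all genes was -0.05. The 6 arrays fell apart by group: correlations between arrays lay between 0.841 and 0.935 within a group and between 0.622 and 0.788 across groups. The number of calls rested on each single array. Without G2/M replicate 1, 2 or 3 there were 0, 4 and 0 genes higher and 1, 22 and 2 lower, and without CDT + DHT replicate 1, 2 or 3 there were 0 genes higher each time and 2, 0 and 1 lower. With log2(intensity + 16), which weighs faint genes less, 176 rose and 148 fell, and 62 of the 81 genes were among them.

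Genes with a long genomic span moved with the groups, and this touches many results below. The median level of long-span genes (above 61054 bases) minus that of short-span genes (below 9226 bases), both among brighter genes, was -1.01, -0.91 and -1.12 on the CDT + DHT arrays and -0.05, -0.22 and -0.16 on the G2/M arrays. The groups did not overlap in this measure. CDT replicate 1 (-0.91), early S replicate 1 (-0.86) and late S replicate 1 (-0.88) lay near the CDT + DHT arrays, while CDT replicates 2 and 3 (-0.29 and -0.04), early S replicate 2 (0.11), late S replicate 2 (-0.06), early G1 replicate 1 (0.14) and late G1 replicate 1 (-0.14) lay in or near the G2/M range. Genes that rose had a median span of 49772 bases and 46.0% of them were long, against 24476 bases and 26.6% over all genes tested. With the measure as a covariate of the fit, an alternative chosen after seeing the data, 16 genes rose and 5 fell. Of the 81 genes that passed without it, 14 passed with it. The measure was computed from the same levels and separated the 2 groups, so in that fit it and the group difference cannot be fully told apart. A call lost or a difference made smaller there does not show its source. What gives rise to the measure was not tested.

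**Figure D1:**
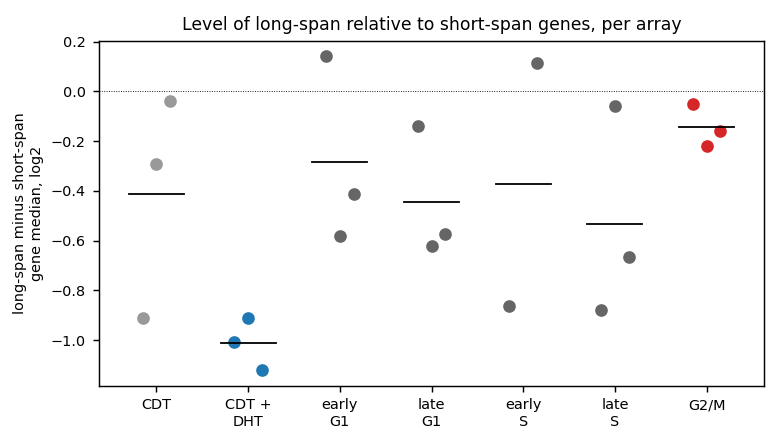
Difference between the median level of long-span and short-span genes on each of the 20 arrays (log2, y axis), by group; each point is an array and each bar a group mean. The 3 CDT + DHT arrays sit between -1.12 and -0.91 and the 3 G2/M arrays between -0.22 and -0.05.

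Genes of mitosis were higher in G2/M as a body. Of 100 listed genes in 6 lists (cyclins with CDK1 and CDC25 phosphatases, mitotic kinases and the spindle checkpoint, APC/C, kinetochore, kinesins, and spindle, chromosome condensation and cytokinesis), 99 were measured and 87 had a difference above 0, against 8796 of 18417 (47.8%) over all genes. Their median difference was 1.497, and for 59 of the 99 the 3 G2/M arrays all lay above the 3 CDT + DHT arrays (15.1% of all genes). For 1 they all lay below (11.8% of all genes). AURKA, TPX2, KIF11, NUSAP1 and TOP2A rose and no member fell, where 0.271% and 0.168% of all genes did. The mean over the 99 genes was 3.92, 4.07 and 3.26 on the CDT + DHT arrays and 5.43, 5.28 and 5.28 on the G2/M arrays, without overlap.

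**Figure D2:**
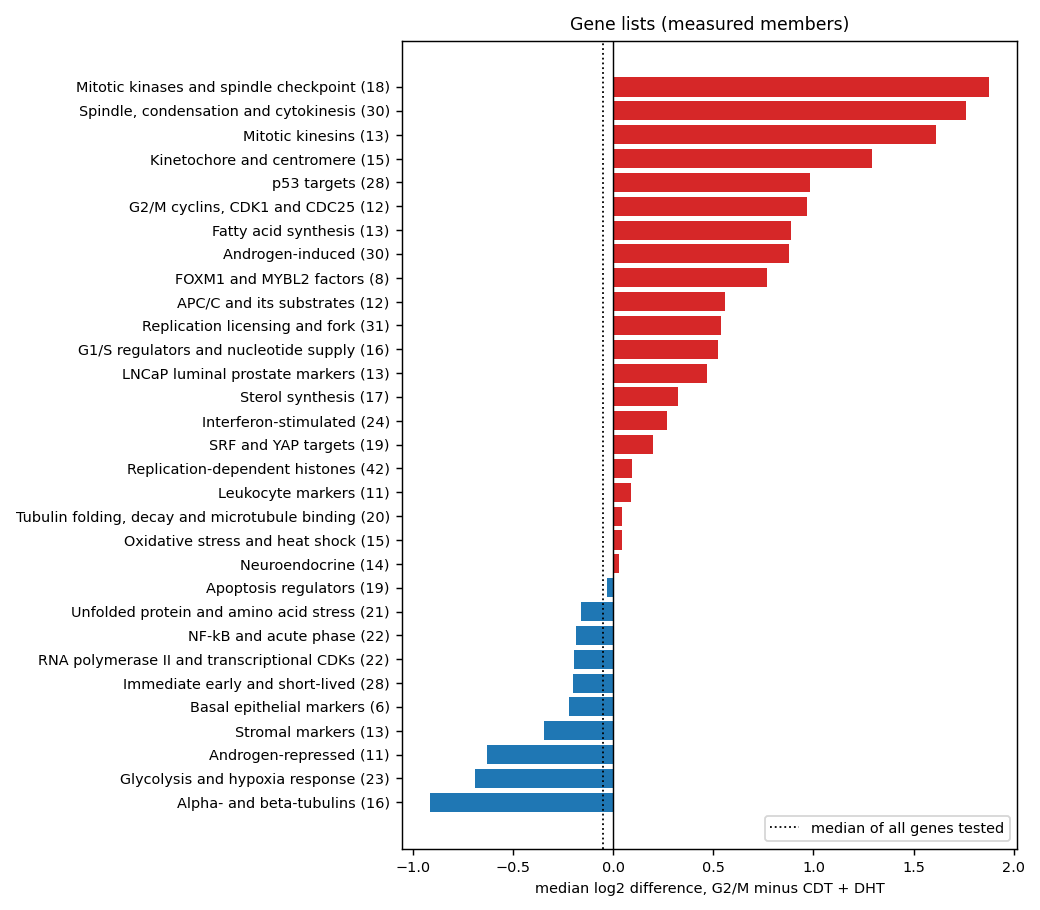
Median log2 difference, G2/M minus CDT + DHT (x axis), over the measured members of each gene list (y axis, number measured in parentheses); the dotted line is the median of all genes tested, -0.05. Mitotic kinases lie highest, at 1.88, and tubulins lowest, at -0.91.

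AURKA encodes Aurora A, the kinase that matures centrosomes and builds the spindle. Its level (transcript cluster 8067167) was 3.53, 4.73 and 2.50 in CDT + DHT and 6.92, 6.80 and 7.05 in G2/M. All G2/M arrays lay above all CDT + DHT arrays and within 0.12 (SD) of each other, while the unarrested arrays spread by 1.12 (SD, n = 3). The difference was 3.34 ± 0.63, or 10.1-fold on the log2(intensity + 1) scale (limma adjusted p = 0.0301). TPX2, the spindle factor that binds and activates Aurora A, stood at 4.35, 4.40 and 4.28 against 7.91, 8.11 and 7.61. The groups were far apart with little spread in either, and the difference was 3.53 ± 0.63 (limma adjusted p = 0.0301).

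NUSAP1, which bundles microtubules around chromosomes, had 4.71, 3.66 and 3.11 in CDT + DHT and 8.38, 7.81 and 8.04 in G2/M. The lowest G2/M array was thus well above the highest unarrested one (4.25 ± 0.78, limma adjusted p = 0.0301). TOP2A, the topoisomerase that untangles sister chromatids, was at 2.90, 3.15 and 2.61 against 7.79, 6.46 and 7.29. G2/M replicate 2 was the lowest of its group, still above every CDT + DHT array, and the difference was 4.29 ± 0.82 (limma adjusted p = 0.0301). KIF11 encodes Eg5, the kinesin that pushes spindle poles apart. It read 1.58, 2.63 and 1.58 against 6.14, 4.33 and 6.003, with G2/M replicate 2 again lowest and no overlap (3.56 ± 0.73, limma adjusted p = 0.0409). The weight of faint signals showed in KIF11, whose difference was 1.71 on the log2(intensity + 16) scale, against 2.27 for AURKA and 3.25 for NUSAP1.

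These calls were close to the threshold. Leaving out 1 of the 6 arrays at a time, AURKA, TPX2, NUSAP1 and TOP2A passed in 0 of 6 fits and KIF11 in 1. The limma adjusted p reached 0.166 for AURKA, 0.155 for TPX2 and NUSAP1, 0.174 for TOP2A and 0.198 for KIF11 in the least favourable of those fits, and the differences stayed within 2.79 to 3.91 for AURKA and 3.99 to 4.65 for TOP2A. With the span measure as a covariate none of the 5 passed, and their differences were 2.61, 2.10, 2.30, 2.07 and 2.25 in the order AURKA, TPX2, KIF11, NUSAP1 and TOP2A. The median of the 99 genes was then 0.49, with 71 above 0, and 0 passed. Within span classes the median was 0.49 over 15 short genes, 1.45 over 63 of middle span and 2.38 over 21 long ones, beside -0.26, -0.06 and 0.26 over all genes of those classes. The G2/M arrays lay above the CDT + DHT arrays for 46.7%, 58.7% and 71.4% of the mitotic genes in that order, and for 6.84%, 15.7% and 22.4% of all genes.

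**Figure D3:**
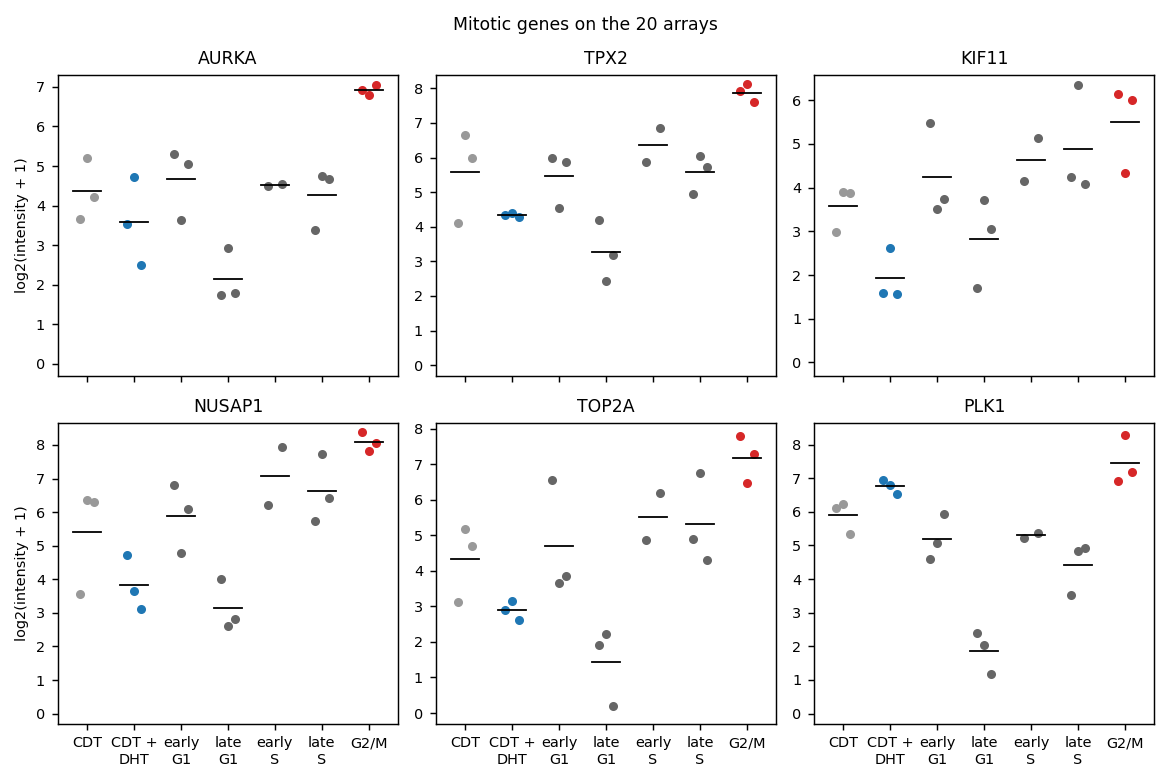
Level of 6 mitotic genes, log2(intensity + 1) on the y axis, on each of the 20 arrays by group (CDT + DHT blue, G2/M red, others grey; bars are group means). For AURKA the G2/M arrays lie between 6.80 and 7.05, above every other array, while for PLK1 the CDT + DHT arrays (6.52 to 6.94) lie next to the G2/M arrays (6.93 to 8.30).

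The promoters of these genes were searched because late cell cycle genes are known for 2 short elements, the cell cycle homology region (CHR), TTTGAA, where MuvB binds, and the CCAAT box, where NF-Y binds. The stretch read was 250 bases before to 50 after the RefSeq start of each gene on GRCh38.p14, on both strands, and the 2 words do not overlap each other. Promoters of KIF11 (chr10:92592880-92593179, plus strand), NUSAP1 (chr15:41332631-41332930, plus strand), TOP2A (chr17:40417847-40418146, minus strand) and PLK1 (chr16:23678639-23678938, plus strand) are shown because the first 3 genes rose and PLK1 set G2/M apart from the other arrests, 5′ to 3′ along the gene. Capitals mark TTTGAA and CCAAT, or their reverse complements TTCAAA and ATTGG.
KIF11: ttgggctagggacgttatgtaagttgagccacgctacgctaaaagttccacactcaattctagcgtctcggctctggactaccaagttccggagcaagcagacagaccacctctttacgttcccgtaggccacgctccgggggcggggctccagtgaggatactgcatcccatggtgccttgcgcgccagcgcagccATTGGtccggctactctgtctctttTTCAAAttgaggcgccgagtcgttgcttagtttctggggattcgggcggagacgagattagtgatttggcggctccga
NUSAP1: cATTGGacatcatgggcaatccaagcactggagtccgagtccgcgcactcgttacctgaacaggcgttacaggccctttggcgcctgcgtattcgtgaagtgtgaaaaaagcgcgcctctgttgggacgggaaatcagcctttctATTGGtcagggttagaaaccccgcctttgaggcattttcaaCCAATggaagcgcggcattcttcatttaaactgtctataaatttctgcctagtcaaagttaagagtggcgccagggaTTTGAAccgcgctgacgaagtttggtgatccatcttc
TOP2A: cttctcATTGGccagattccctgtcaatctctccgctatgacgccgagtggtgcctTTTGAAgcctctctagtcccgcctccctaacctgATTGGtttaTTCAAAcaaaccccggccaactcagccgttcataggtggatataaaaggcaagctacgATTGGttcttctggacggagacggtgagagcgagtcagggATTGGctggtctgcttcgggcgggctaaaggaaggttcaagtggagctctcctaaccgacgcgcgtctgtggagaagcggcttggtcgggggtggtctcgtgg
PLK1: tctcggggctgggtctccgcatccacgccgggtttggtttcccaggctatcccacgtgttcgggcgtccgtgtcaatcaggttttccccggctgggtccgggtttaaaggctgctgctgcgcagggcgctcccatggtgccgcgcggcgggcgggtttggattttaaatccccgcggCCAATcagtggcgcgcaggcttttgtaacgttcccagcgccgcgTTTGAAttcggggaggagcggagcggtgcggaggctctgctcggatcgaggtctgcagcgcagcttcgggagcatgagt
Each of these holds TTTGAA on 1 strand or the other, once in KIF11, NUSAP1 and PLK1 and 2 times in TOP2A. CCAAT occurs 1 time in KIF11 and PLK1, 3 times in NUSAP1 and 4 times in TOP2A. AURKA and TPX2, which rose too, had no promoter in the set that was read. The promoters of TUBA1A and TUBB4A, tubulin genes that fell, were read as well. They held TTTGAA 0 times and CCAAT 2 times each and are not shown. TTTGAA was in 52 of 82 promoters of the mitotic lists (63.4%) and in 15.4% of 27305 promoters of the same length, and CCAAT in 57 of 82 (69.5%) and 35.7%. Among the genes that rose, 10 of 44 with a promoter in the table held TTTGAA (22.7%), and among those that fell 2 of 23 (8.7%). A match describes the letters of the window and does not show a bound factor.

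Other members of the mitotic lists were higher on all 3 arrays without passing the threshold. CDK1, the kinase that drives mitotic entry, was at 3.21, 2.35 and 2.03 in CDT + DHT and 6.47, 4.73 and 6.23 in G2/M. The groups did not overlap, at a difference of 3.28 ± 0.79 (limma adjusted p = 0.0747). CCNB1, which encodes its partner cyclin B1, was bright in both groups, at 7.31, 7.65 and 7.03 against 8.36, 8.64 and 8.37. Its difference was smaller, 1.13 ± 0.48 (limma adjusted p = 0.271). MKI67, the gene of the proliferation antigen Ki-67, read 1.91, 2.32 and 2.69 against 5.56, 5.81 and 5.17, apart in every array (3.20 ± 0.76, limma adjusted p = 0.0706).

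The largest differences that missed the threshold in the other mitotic lists were of like size. NEK2, a centrosome kinase, differed by 4.37 ± 1.14 (limma adjusted p = 0.0868), and CKAP5, a microtubule polymerase at the spindle, by 5.10 ± 1.28 (adjusted p = 0.0799). CKAP5 read 0.01 in CDT + DHT replicate 3 against 2.90 and 3.04 in the other arrays of that group, which widened its spread. CENPF of the kinetochore differed by 2.87 ± 0.82 (adjusted p = 0.121), the chromokinesin KIF4A by 3.21 ± 0.87 (adjusted p = 0.101) and the APC/C subunit CDC27 by 3.12 ± 1.03 (adjusted p = 0.172). WEE1, which encodes the kinase that restrains CDK1, differed by 3.28 ± 1.19 (adjusted p = 0.211).

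By role, the medians were 1.88 over 18 kinases and checkpoint genes, 1.76 over 30 genes of spindle, condensation and cytokinesis and 1.61 over 13 kinesins. They were 1.29 over 15 kinetochore genes, 0.97 over 12 cyclin, CDK1 and CDC25 genes and 0.56 over 12 APC/C genes and substrates. With the span measure in the fit they were 0.64, 0.53, 1.06, 0.03, 0.41 and 0.18, so the order of roles changed. Of the 15 kinetochore genes, 8 were then above 0. The 8 measured genes of the FOXM1 and MYBL2 list, the transcription factors of this programme, had a median of 0.77, or 0.19 with the span measure. Of the 8, 6 were above 0 and 3 lay higher without overlap (47.8% and 15.1% of all genes). LIN54, the DNA-binding subunit of MuvB, differed by 1.82 ± 0.58 (limma adjusted p = 0.157). Each of these lists lay above the median of all genes, which was -0.05, or -0.19 with the span measure.

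PLK1 and CDC20 differed little between the groups. PLK1, the Polo-like kinase of mitotic entry, was at 6.94, 6.81 and 6.52 in CDT + DHT and 6.93, 8.30 and 7.17 in G2/M. G2/M replicate 1 lay at the level of the unarrested arrays, so the groups overlapped, and the difference was 0.71 ± 0.55 (limma adjusted p = 0.575). CDC20, the APC/C activator that the spindle checkpoint holds back, read 4.97, 4.62 and 4.45 against 5.15, 5.25 and 4.31, which overlap as well (0.22 ± 0.50, limma adjusted p = 0.881). A difference of this size could not be told from none at this spread. On simulated data with independent noise for each gene, the fit recovered 2% of genes changed by 1 on the log2 scale, 8% at 2, 52% at 3 and 70% at 4. The simulation held no shift shared by many genes, such as that of the span measure, so these shares may not hold for the real arrays. They are shares of randomly picked genes and do not speak of PLK1 or CDC20 in particular.

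The other arrests show which of these levels were high in G2/M against drug-treated cells too. In the same fit, G2/M was set against the mean of the other 4 arrests, all in hormone-proficient medium with DHT. There 5 genes passed (0.0271% of the genes tested), 4 higher (0.0217%) and 1 lower (0.00543%), and 920 (5.0%) had an unadjusted p below 0.05. The 4 were DHRS2, PLK1, AURKA and DEFB114, and the lower one was OR1G1. DHRS2 and DEFB114 are named after their values were seen. AURKA was 3.02 ± 0.50 above the other arrests (limma adjusted p = 0.0404), with a G2/M mean of 6.92 beside 4.66 for early G1, 4.52 for early S, 4.27 for late S and 2.14 for late G1. PLK1 was 3.26 ± 0.44 above them (limma adjusted p = 0.00407), where late G1 was lowest at 1.87, late S stood at 4.43, early G1 at 5.20 and early S at 5.31. Its G2/M mean of 7.47 was thus near that of CDT + DHT (6.76) and above every other arrest. The calls against the other arrests changed with 1 G2/M array, the only arrays left out here: without G2/M replicate 1, 2 or 3 there were 2, 0 and 2 genes higher and 0 lower each time.

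The mitotic lists together had a median of 1.40 above the other arrests, with 89 of 99 members above 0, and of 0.75 above early S. The arrests were not alike in this. The mean over the 99 genes was 3.62, 5.28 and 4.38 on the late S arrays and 4.16 and 4.99 in early S. It was 4.92, 3.52 and 4.66 in early G1 and 3.01, 2.91 and 2.73 in late G1. Late S replicate 2 was thus level with G2/M replicates 2 and 3 (5.28 each). TPX2 was 2.71 ± 0.51 above the other arrests (limma adjusted p = 0.0733), TOP2A 2.94 ± 0.65 (adjusted p = 0.236) and KIF11 1.34 ± 0.59 (adjusted p = 0.954). KIF11 had a late S mean of 4.89 and a G2/M mean of 5.49, so that most of its distance from CDT + DHT (1.93) was seen in late S also. Against early S alone limma called 0 genes, with 629 (3.42%) at an unadjusted p below 0.05, and AURKA differed by 2.41 ± 0.71.

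DHRS2, a short-chain dehydrogenase gene, differed most from the other arrests among the 5 genes that passed there. Its values were 2.57, 2.14 and 1.69 in CDT + DHT and 5.57, 5.55 and 5.42 in G2/M. On the other 14 arrays its highest reading was 2.57 in CDT replicate 3, so no array of another group reached the G2/M level. The difference was 3.38 ± 0.71 from CDT + DHT (limma adjusted p = 0.0440) and 4.62 ± 0.57 from the other arrests (limma adjusted p = 0.00226). DEFB114, a beta-defensin gene, was faint throughout, at 2.88, 2.65 and 3.03 in G2/M and 1.00, 2.42 and 0.01 in CDT + DHT. It differed by 2.64 ± 0.45 from the other arrests (limma adjusted p = 0.0495) and by 1.71 ± 0.57 from CDT + DHT, which did not pass (adjusted p = 0.174).

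**Figure D4:**
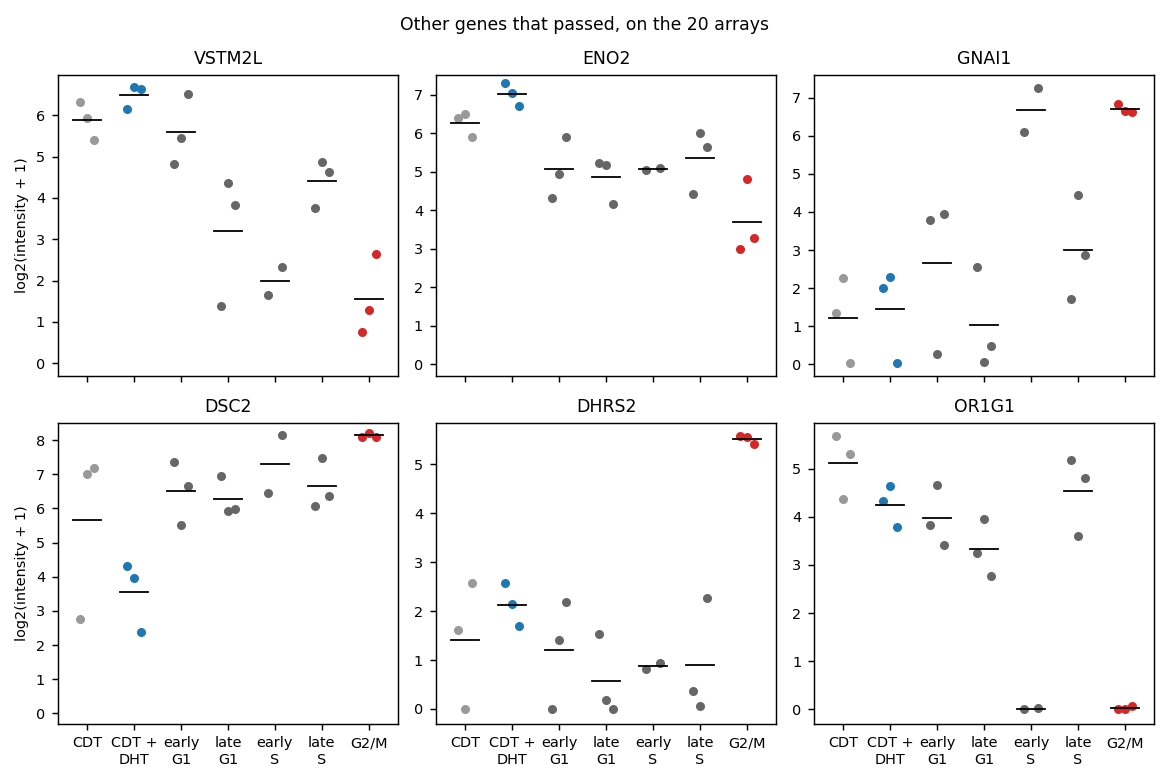
Level of 6 further genes, log2(intensity + 1) on the y axis, on each of the 20 arrays by group (CDT + DHT blue, G2/M red, others grey; bars are group means). DHRS2 is high on the G2/M arrays (5.42 to 5.57) and OR1G1 lies near 0 on the G2/M and early S arrays.

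Tubulin genes were lower. Of 18 listed alpha-, beta- and gamma-tubulin genes 16 were measured, 2 fell (0.168% of all genes did) and 0 rose, and 2 of the 16 had a difference above 0. The median was -0.91. TUBA1A, an alpha-tubulin gene, was at 8.80, 9.21 and 8.73 in CDT + DHT and 6.30, 6.34 and 6.31 in G2/M. The G2/M arrays were nearly equal, and all lay more than 2 log2 units below the unarrested ones (-2.60 ± 0.42, limma adjusted p = 0.0301). TUBB4A, a beta-tubulin gene, read 8.94, 8.94 and 9.61 against 6.67, 6.21 and 5.07, lowest in G2/M replicate 3 and without overlap (-3.18 ± 0.54, limma adjusted p = 0.0301).

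Among the tubulins that did not pass, TUBB2A was at 6.65, 7.19 and 6.61 in CDT + DHT and 5.25, 5.38 and 5.00 in G2/M. Its arrays did not overlap (-1.60 ± 0.51, limma adjusted p = 0.155). TUBA1B, a main alpha-tubulin of dividing cells, differed by -0.77 ± 0.48 (adjusted p = 0.471) and TUBB by -0.86 ± 0.55 (adjusted p = 0.485), and the arrays of both overlapped. In all, the arrays of 5 tubulin genes lay lower without overlap (11.8% of all genes) and of 1 higher. Tubulin genes are close copies of one another and their probes may share signal. TUBB3 had no feature with a single gene symbol and was not tested here. TTC5, the adaptor of tubulin messenger decay, read 4.05, 4.06 and 1.90 against 3.08, 3.04 and 3.09, with overlap (-0.27 ± 0.76, adjusted p = 0.910).

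The low tubulin levels were set beside those of the other arrests. TUBA1A had means of 8.10 for late S, 7.93 for early G1, 7.29 for early S and 6.06 for late G1, so that late G1 was at or below the G2/M mean of 6.32, and its difference from the other arrests was -1.03 ± 0.34 (limma adjusted p = 0.669). TUBB4A had means of 8.93 for early G1, 8.75 for late S, 7.99 for early S and 7.53 for late G1, beside 9.16 in CDT + DHT and 5.98 in G2/M. It differed by -2.32 ± 0.44 from the other arrests and did not pass (limma adjusted p = 0.0733). The median of the 16 genes was -1.07 against early S and -0.20 against the other arrests together, and -0.58 against CDT. Tubulin genes are short, 12 of the 16 in the short class, where their median was -1.06 beside -0.26 over all short genes. With the span measure in the fit the median was -0.88, and TUBA1A still passed (-2.90, limma adjusted p = 0.0344) while TUBB4A did not (-2.40, adjusted p = 0.145). Leaving out any array other than G2/M replicate 2 ended both calls. The tubulin median was -0.57 without G2/M replicate 1 and between -1.08 and -0.76 without any other array. The 20 measured genes of tubulin folding, decay and microtubule binding had a median of 0.05, with 0 called by limma. Without overlap 5 lay higher and 3 lower, near the shares of all genes (15.1% and 11.8%). KIF5B, the kinesin-1 motor, had the largest difference of that list at 2.85 ± 0.94 (adjusted p = 0.169).

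Genes of DNA replication and of the G1/S transition differed less. Over 31 replication genes the median was 0.54, 21 were above 0 (47.8% of all genes) and limma called 0. Without overlap 12 lay higher and 1 lower (15.1% and 11.8% of all genes). With the span measure in the fit the median was -0.13. RFC3, a subunit of the clamp loader, differed by 2.72 ± 0.81 (limma adjusted p = 0.132). PCNA, the sliding clamp, stood at 6.75 ± 0.28 in CDT + DHT and 7.28 ± 0.13 in G2/M (SD, n = 3 each), a difference of 0.54 ± 0.49 (adjusted p = 0.642). The 16 measured G1/S genes had a median of 0.52, or -0.38 with the span measure, where CDC7, the kinase that fires origins, was at 3.38 ± 0.87 (adjusted p = 0.0868) and CCND1, cyclin D1, at 1.71 ± 0.70 (adjusted p = 0.256). Against early S the replication list had a median of -0.45. Of 42 measured replication-dependent histone genes, 1 rose (H3C8, beside 0.271% of all genes) and the median was 0.09. H3C8 read 0.01, 0.02 and 0.00 in CDT + DHT and 3.97, 2.19 and 2.90 in G2/M, and its difference of 3.01 ± 0.63 (limma adjusted p = 0.0440) shrank to 0.57 with log2(intensity + 16).

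Targets of p53, the stress-activated tumour suppressor, were higher for most members. Of 28 measured, 22 had a difference above 0 (47.8% of all genes), with a median of 0.98. Without overlap 15 lay higher and 2 lower (15.1% and 11.8% of all genes), and 1 rose (0.271%). MDM2, the ubiquitin ligase that p53 induces and that degrades it, rose from 2.21, 2.80 and 3.43 to 7.06, 6.51 and 6.46. The groups were separate by more than 3 log2 units (3.87 ± 0.83, limma adjusted p = 0.0472). MDM2 was also high in early S (mean 6.04) and late S (6.42), and its difference from the other arrests was 1.21 ± 0.67 (adjusted p = 0.997). CDKN1A, which encodes the kinase inhibitor p21, read 6.73, 6.45 and 6.12 against 7.52, 8.13 and 7.54, higher on every array at 1.30 ± 0.59 (adjusted p = 0.307). TP53INP1, a stress-induced p53 cofactor, differed by 3.84 ± 1.14 (adjusted p = 0.132). Within span classes the median of the p53 list was 1.00 over 9 short genes, 0.64 over 17 of middle span and 1.39 over 2 long ones. Over all genes of those classes it was -0.26, -0.06 and 0.26. Of the 9 short p53 targets, 5 lay higher and 2 lower without overlap (6.84% and 15.2% of all short genes). With the span measure in the fit the median of the p53 list was 0.02, with 14 of 28 above 0. MDM2 was then at 1.69 (adjusted p = 0.374), and it passed in 0 of 6 fits without 1 array (adjusted p up to 0.201). Apoptosis regulators had a median of -0.03 over 19 genes, limma called 0, and BAK1, a pore-forming protein of mitochondria, differed by 2.59 ± 0.69 (adjusted p = 0.0925).

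Androgen target genes were compared because both groups had DHT. KLK2, a kallikrein protease gene, was at 8.12, 7.76 and 7.81 in CDT + DHT and 7.66, 8.19 and 7.81 in G2/M. The arrays interleaved, at -0.02 ± 0.42 (limma adjusted p = 0.993), or 0.06 after quantile normalization. KLK3, which encodes prostate-specific antigen, read 8.96, 8.73 and 8.59 against 8.98, 9.63 and 9.09, a small difference (0.48 ± 0.50, adjusted p = 0.689). Of 30 measured androgen-induced genes, 21 were above 0 (47.8% of all genes), with a median of 0.88. Without overlap 14 lay higher and 0 lower (15.1% and 11.8% of all genes), and 2 rose (0.271%). These were NCAPD3, a condensin II subunit (3.23 ± 0.62, limma adjusted p = 0.0301), and HERC3, a ubiquitin ligase gene (3.33 ± 0.67, limma adjusted p = 0.0376).

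NCAPD3 read 2.71, 2.51 and 2.46 in CDT + DHT and 5.64, 6.39 and 5.35 in G2/M, with 5.52 in early G1 and 5.47 in early S (means), so the level was shared by other arrests. HERC3 read 3.05, 3.63 and 2.67 against 6.15, 6.57 and 6.62. The CDT mean was 3.99 for NCAPD3, above its CDT + DHT mean of 2.56, and 3.10 for HERC3 beside 3.12. Neither passed without any 1 of the 6 arrays (adjusted p up to 0.155 for NCAPD3 and 0.166 for HERC3), and with the span measure they were at 1.83 and 1.69. The median of the list was then 0.18, and it was 0.14 against the other arrests. ABCC4, a nucleotide and drug exporter, differed by 4.28 ± 1.05 (adjusted p = 0.0758). Its mean was 4.24 in CDT and 2.57 in CDT + DHT. The 11 measured androgen-repressed genes had a median of -0.63, with 0 called by limma. Without overlap 6 lay lower and 1 higher (11.8% and 15.1% of all genes), and with the span measure the median was -1.85. TMPRSS2 and FKBP5 had no feature with a single gene symbol and were not tested here.

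Genes of glycolysis and the hypoxia response were lower than in CDT + DHT for most members: 5 of 23 measured were above 0 (47.8% of all genes), the median was -0.69 and 1 fell (0.168%). Without overlap 5 lay lower and 1 higher (11.8% and 15.1% of all genes). The list was not low in G2/M against every reference. Its median was 0.005 against the other 4 arrests, with 12 of 23 above 0, -0.47 against early S and 0.27 against CDT. The list's mean was 6.38, 6.23 and 5.48 on the CDT + DHT arrays, 5.21, 5.68 and 5.03 in CDT and 5.19, 5.93 and 5.14 in G2/M. ENO2, neuron-specific enolase and a marker of neuroendocrine cells, was at 7.31, 7.06 and 6.70 in CDT + DHT and 2.99, 4.81 and 3.27 in G2/M. G2/M replicate 2 was highest of its group and still well below the others (-3.33 ± 0.58, limma adjusted p = 0.0301). Its means in the other arrests lay between, from 4.86 in late G1 to 5.36 in late S. PFKP, the platelet-type phosphofructokinase, read 5.92, 5.48 and 4.95 against 3.39, 3.999 and 3.24 and did not pass (-1.91 ± 0.50, adjusted p = 0.0868). With the span measure ENO2 was at -3.39 (adjusted p = 0.0941) and the list's median at -0.80. Without 1 array ENO2 passed in 1 of 6 fits (adjusted p up to 0.137). PGM1, a phosphoglucomutase gene, and ALDH2, the mitochondrial aldehyde dehydrogenase, are not members of this list and are named after their values were seen. They fell by 2.71 ± 0.50 and by 2.62 ± 0.43 (limma adjusted p = 0.0301 for both).

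ENO2 is also 1 of 14 measured neuroendocrine genes, a list whose median was 0.03. SYP, the synaptic vesicle protein synaptophysin, was at 2.91, 2.50 and 4.11 in CDT + DHT and 0.85, 0.01 and 0.01 in G2/M. Its levels were low, apart without overlap, and did not pass (-2.89 ± 0.76, limma adjusted p = 0.0905).

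The largest increases outside these lists included a G protein subunit, a lipid enzyme, a cadherin and several genes that read near 0 in CDT + DHT. GNAI1, the inhibitory G protein subunit, was at 2.01, 2.29 and 0.03 in CDT + DHT and 6.83, 6.66 and 6.64 in G2/M (5.27 ± 0.96, limma adjusted p = 0.0301). Early S was as high (mean 6.68, 0.03 ± 1.07 from G2/M), and late G1 was as low as the controls (1.03). ELOVL7, a fatty acid elongase, stood at 6.82 in G2/M, 6.90 in early S and 1.71 in CDT + DHT (means, 5.11 ± 0.91, limma adjusted p = 0.0301). Its CDT + DHT arrays read 2.20, 2.92 and 0.01. As for GNAI1, replicate 3 was lowest, the array with the lowest median intensity of the series. The measured genes of fatty acid synthesis, 13 in number, had a median of 0.89, which turned to -0.38 with the span measure in the fit. Without overlap 4 lay higher and 2 lower (15.1% and 11.8% of all genes).

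DSC2, a desmosomal cadherin, read 4.32, 3.95 and 2.38 against 8.10, 8.22 and 8.09. Its G2/M arrays agreed within 0.07 (SD, n = 3), and the difference was 4.59 ± 0.91 (limma adjusted p = 0.0332). DPP4, a cell surface peptidase, rose by 4.32 ± 0.81, and ALDH1A3, a retinaldehyde dehydrogenase, by 4.28 ± 0.85 (limma adjusted p = 0.0301 and 0.0334). MYCBP2, a very large ubiquitin ligase, rose by 5.02 ± 0.93 (limma adjusted p = 0.0301), and SEPTIN11, a filament-forming GTPase, by 4.27 ± 0.91 (limma adjusted p = 0.0469). In early S these 5 genes had means of 7.30, 4.93, 6.21, 6.13 and 7.33 in the order DSC2, DPP4, ALDH1A3, MYCBP2 and SEPTIN11. These were near the G2/M means of 8.14, 5.10, 6.49, 7.15 and 7.43. In CDT, the same medium without DHT, the means were 5.66, 3.05, 3.88, 4.29 and 6.29. The CDT + DHT means were lower, at 3.55, 0.78, 2.22, 2.12 and 3.16. None of the 5 passed between CDT + DHT and CDT (limma adjusted p from 0.696 to 0.726). SEPTIN11 in G2/M differed from CDT by 1.13 ± 0.91 (limma adjusted p = 0.848).

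C8A, a complement component, had the largest difference of the 50 genes that rose. It read 0.07, 0.00 and 0.01 in CDT + DHT and 6.44, 5.22 and 6.22 in G2/M (5.94 ± 1.04, limma adjusted p = 0.0301). Of the 50 genes that rose, 15 had a CDT + DHT mean below 1, and 6 of those (C8A, CCDC71, GDPD5, H3C8, H6PD and MZF1) were below 1 on all 6 arrays of cells in the CDT medium. These 6 are named after their values were seen. On the 14 arrays of arrested cells C8A lay between 0.25 and 7.504, and GDPD5, a phosphodiesterase gene, between 0.83 and 6.002, against at most 0.0044 in the CDT medium. The other 9 reached 1 or more on at least 1 array of the CDT medium. The 6 were picked by their readings there, so their low level in that medium is no result of its own. SP7, an osteoblast transcription factor (4.95 ± 0.94), and SPEG, a muscle kinase (4.75 ± 0.97), rose as well (limma adjusted p = 0.0301 and 0.0409), from means of 0.53 and 0.10. On the log2(intensity + 16) scale the differences were 2.29 for C8A, 1.09 for GDPD5, 1.87 for SP7 and 1.46 for SPEG.

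The largest decreases were in genes of varied roles. VSTM2L, an immunoglobulin domain protein gene, was at 6.15, 6.69 and 6.64 in CDT + DHT and 0.75, 1.28 and 2.65 in G2/M. The groups were separate by more than 3 log2 units (-4.93 ± 0.70, limma adjusted p = 0.00829). It stepped down across arrests, from 5.59 in early G1 to 4.41 in late S, 3.19 in late G1 and 1.99 in early S, and its call held in 3 of 6 fits without 1 array (adjusted p up to 0.0739). OR1G1, an olfactory receptor gene, read 4.33, 4.65 and 3.78 against 0.01, 0.00 and 0.07. Early S was near 0 too (0.01), whereas early G1, late G1 and late S had means of 3.97, 3.33 and 4.54, so the low reading went with the 2 groups that had aphidicolin. Its difference was -4.22 ± 0.53 from CDT + DHT (limma adjusted p = 0.00335) and -2.93 ± 0.43 from the other arrests (limma adjusted p = 0.00872). It passed in 5 of 6 fits without 1 array (adjusted p up to 0.0578). IL13RA2, a decoy receptor for interleukin 13, fell by 3.65 ± 0.64 (limma adjusted p = 0.0301), and SEMA4B, a semaphorin, by 3.15 ± 0.60 (limma adjusted p = 0.0301). GLIS2, a zinc finger factor, fell by 2.91 ± 0.63, and DAB1, an adaptor of reelin signalling, by 2.75 ± 0.60 (limma adjusted p = 0.0472 for both). Faint signals weighed here too, as 8 of the 31 genes that fell had a G2/M mean below 1. On the log2(intensity + 16) scale the differences were -1.10 for OR1G1, -1.26 for IL13RA2, -0.97 for SEMA4B, -0.82 for GLIS2 and -0.90 for DAB1.

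The levels of the 81 genes in the other groups are given as a description, since the genes were chosen by the comparison with CDT + DHT and a group other than CDT + DHT or G2/M tends to lie between them by that choice. The 50 genes that rose had median levels of 5.72 in G2/M, 4.86 in early S, 4.65 in late S, 4.32 in early G1, 3.74 in CDT, 3.33 in late G1 and 1.94 in CDT + DHT. The CDT + DHT level was thus the lowest of the 7 groups. The 31 that fell had median levels of 4.59 in CDT + DHT, 4.49 in CDT, 3.72 in early G1, 3.67 in late S, 3.19 in late G1 and early S and 1.25 in G2/M. Of the 50, 49 were above the other arrests, by a median of 1.20, and 2 passed there. Of the 31, 30 were below, by a median of -1.55, and 1 passed. Against CDT, which shares the medium but had no DHT, the 50 had a median difference of 2.05 with 5 passing, and the 31 a median of -2.57 with 10 passing. Over all genes 9 were higher than in CDT (0.0489%) and 11 lower (0.0597%), with 1298 (7.05%) at an unadjusted p below 0.05. The comparisons with CDT + DHT, with CDT and with the other arrests all share the G2/M arrays.

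Other lists held few calls. Immediate early genes had a median of -0.20 over 28 measured, with 7 lower and 2 higher without overlap (11.8% and 15.1% of all genes). Sterol synthesis genes had a median of 0.33 over 17, or -0.65 with the span measure. Interferon-stimulated genes lay at 0.27 over 24 (-0.13 with the span measure), NF-κB and acute phase genes at -0.18 over 22, unfolded protein response genes at -0.16 over 21, and RNA polymerase II and its kinases at -0.20 over 22. None of these lists had a member that limma called, at a background of 0.44% over all genes in either direction.

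Markers of the labelled cell type and of other cells were summed per array. The luminal prostate list, 13 measured of 16, summed to intensities of 1257 to 1830 in CDT + DHT and 1585 to 1977 in G2/M. Basal epithelial markers, 6 measured of 9, summed to 93.8 to 131 and 118 to 143, leukocyte markers, 11 of 12, to 32.3 to 84.0 and 64.2 to 104, and stromal markers, 13 of 13, to 124 to 156 and 86.6 to 126. Of the stromal markers, 1 had a mean below 1 in CDT + DHT and 3 in G2/M, and of the leukocyte markers 1 and 2. No member of the 4 lists was called by limma. The part of other cells in any result was not tested.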

How the data were processed

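Trizol-extracted RNA of LNCaP cells was amplified (NuGEN Ovation Pico WTA V2), biotin-labelled and put on 20 Affymetrix gene arrays, per the labels' protocols. The deposited values are intensities from Affymetrix Expression Console 1.1, as the submitters' processing notes name it. They were taken as linear from their range, which is wider than a log2 scale holds, and every log2 difference rests on that. How probes were summarised and arrays normalized is not given in the sources used here. Array medians ran from 5.44, on CDT + DHT replicate 3, to 9.08, on late S replicate 2. CDT + DHT replicates 1 and 2 had 7.84 and 8.17. Features with 1 gene symbol were kept (19460 of 33297), the brightest per gene where a gene had several (769 genes), which gave 18417 genes.

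Values were taken as log2(intensity + 1), with a pseudocount of 1, which understates fold changes of faint genes, and fitted with limma 3.58.1 in R 4.3.3 (lmFit, eBayes, 1 coefficient per group, all 20 arrays), two-sided, with Benjamini-Hochberg adjustment. Members and gene lists were chosen with earlier results of these data known. Named genes were the 15 largest calls in each direction without overlap, up to 4 called members and the 1 largest uncalled member of each list, and a fixed set (AURKA, PLK1, CCNB1, CDK1, MKI67, TOP2A, CDC20, tubulins, TTC5, KLK2, KLK3, CDKN1A, CCND1, PCNA, MCM5 and others). The fit was tested on simulated data. Among 70 calls there, 5.71% were unchanged genes, with noise independent between genes and no shift shared across an array, so this share may not hold for the real arrays. Alternatives were a pseudocount of 16, quantile normalization, median centring, leaving out dim genes, averaging a gene's clusters, trend and robust in eBayes, array weights, fitting the 2 groups alone, blocking on the replicate number, leaving out each array and, chosen after seeing the data, the gene span measure as a covariate. Gene spans and promoters came from RefSeq tables for GRCh38.p14, which also gave current names for 19429 features by Entrez ID.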

Additional observations from a re-analysis of the deposited data

Results flagged for a closer look

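For 5 genes that the report names, the difference of G2/M from CDT + DHT and that of the other 4 arrests from CDT + DHT were unequal by a test of the difference itself. The tested value is G2/M minus the mean of the other 4 arrests, in limma over all genes. It was 3.02 for AURKA, the spindle kinase, 3.26 for PLK1, the kinase of mitotic entry, 4.62 for DHRS2, a dehydrogenase gene, 2.64 for DEFB114, a beta-defensin gene, and -2.93 for OR1G1, an olfactory receptor gene. PLK1 differed by 0.71 from CDT + DHT (mean 6.76). Its means elsewhere were 5.90 in CDT, 5.31 in early S, 5.20 in early G1, 4.43 in late S and 1.87 in late G1. In the same fit each arrest was also set against CDT + DHT. For PLK1, late G1 differed from CDT + DHT by -4.89 ± 0.55 (limma adjusted p = 0.000521). Late S differed by -2.33 ± 0.55 (limma adjusted p = 0.127), early G1 by -1.56 ± 0.55 (0.546) and early S by -1.45 ± 0.61 (0.597), and these did not pass. What gave rise to these levels was not tested. OR1G1 was as low in early S (mean 0.01) as in G2/M (mean 0.03).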

How the results depend on the processing

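Over 81 calls, 73 were shared with quantile normalization, 78 with median centring and 62 with a pseudocount of 16, and 0 changed direction in these. Genes higher and lower than in CDT + DHT (50 and 31) were 176 and 148 with a pseudocount of 16, 158 and 65 with dim genes left out, 268 and 81 with eBayes trend and robust, 881 and 788 with array weights, 352 and 52 with only the compared groups, and 16 and 5 with the gene span covariate (76.2% higher, against 61.7%). The lower count was 50 with quantile normalization and 57 with median centring, which moved the median of all genes from -0.05 to -0.16. Without 1 array the counts ran from 0 to 4 higher and 0 to 22 lower.

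Against the other arrests (4 and 1), a pseudocount of 16 gave 15 and 3, trend and robust 9 and 3, array weights 12 and 13, and the span covariate 2 higher. Median centring and the dim filter gave 3 lower each. Without 1 G2/M array there were 0 to 2 higher and 0 to 0 lower, and no array of the other arrests was left out. Against early S the pseudocount of 16 gave 1 gene each way.

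With the replicate number as a block, 0 genes were higher and 2 lower than in CDT + DHT, and 2 were higher than in the other arrests. Deviations of same-numbered arrays correlated at -0.13, -0.003 and 0.18, so the numbers were not taken as a pairing.

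Named genes changed sign rarely. KLK2 (-0.02) was 0.061 with quantile normalization, 0.21 with the span covariate and -0.17 to 0.10 without 1 array, and TTC5 (-0.27) was -0.99 to 0.10 without 1 array. With the span covariate CCNE2 was -0.48, HSP90B1 -0.60, KIF5B -0.021, PCNA -0.41 and STEAP2 -0.041. The causes were not tested.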
